A study of Homo sapiens with 6 samples.

Results

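Cholesterol that reaches a cell in lipoproteins has to be taken up, freed from its esters in the lysosome and carried back to other membranes. The levels of 6 genes of this route, SCARB1, LIPG, LIPA, NPC2, NPC1 and STARD4, were measured by RNA sequencing in H460 cells, a human cell line from a large cell carcinoma of the lung. The 6 genes were chosen by symbol, with earlier results of these data known, from the 31762 genes of the deposited count table. Each symbol matched 1 row. Control cells (3 libraries) were compared with cells given 20 µM fluoxetine, a selective serotonin reuptake inhibitor used as an antidepressant, for 24 h (3 libraries). Both groups carry the wild-type genotype and were grown in RPMI-1640 medium with fetal bovine serum, a source of lipoproteins. The vehicle of the control cells is not given in the sources used here. Both groups are a single cell line in culture, and nothing states that the libraries of a group came from separate cultures, so the p-values measure the spread between these libraries, which may be technical.

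Lipoproteins are bound at the cell surface by receptors, and most are carried to the lysosome, where lysosomal acid lipase, the product of LIPA, cuts their cholesteryl esters. The small soluble protein NPC2 binds the freed cholesterol in the lumen and hands it to NPC1, a protein of the limiting membrane that exports it, and loss of either protein makes cholesterol pile up in lysosomes, as in Niemann-Pick disease type C. SCARB1 encodes SR-B1, a receptor that draws cholesteryl esters from high density lipoprotein at the cell surface. LIPG encodes endothelial lipase, a secreted phospholipase that acts on the same particles, and STARD4 encodes a soluble carrier that moves sterols between membranes in the cytosol. When sterols are scarce in the endoplasmic reticulum, transcription factors of the SREBP family raise genes of sterol synthesis and uptake, often together with NF-Y, which binds CCAAT boxes. TFEB and its relatives raise lysosomal genes through the CLEAR motif.

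All 6 genes rose with fluoxetine, by 1.34-fold for NPC1 to 5.95-fold for LIPG. Each passed an adjusted p-value under 0.05 in edgeR's quasi-likelihood test, whereas 7.76% of the 15646 tested genes passed it as higher and 5.32% as lower. In each of the 6 genes, every fluoxetine library lay above every control library, which held for 17.5% of the tested genes. LIPG, NPC2 and STARD4 passed that test with a rise of at least 2-fold, as did 1.25% of the tested genes. The median log2 fold change was 0.85 over the 6 genes and 0.03 over all tested genes. Because the 6 genes were chosen with earlier results of these data known, these values are a background, not a test of the set. In such bulk samples, a change in the number of cells that express a gene and a change in RNA per cell cannot be told apart.

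The libraries held between 16157507 and 27823667 counts, and every fluoxetine library was shallower than every control library. Of the markers of epithelial carcinoma cells, KRT8, KRT18 and KRT19 summed with the others to 3060 to 4030 CPM (counts relative to library size, after TMM normalization) in control libraries and 2690 to 3260 CPM with fluoxetine. EPCAM had at most 11 counts in any library and CDH1 at most 1, so these 2 epithelial markers were absent or nearly so. KRT18 fell by 0.72 on the log2 scale (edgeR adjusted p = 0.00162). The 4 fibroblast markers summed to 7.75 to 10.4 CPM in control libraries and 7.86 to 8.86 CPM with fluoxetine, nearly all from COL1A1 and PDGFRB, with COL1A2 and DCN at no more than 8 counts. The leukocyte markers summed to 1.98 to 2.27 and 2.31 to 2.45 CPM, nearly all from CD14, while PTPRC had at most 2 counts. The endothelial and hepatocyte markers had at most 3 counts each. CDH5 and CD3E were not analysed here. What part depth, KRT18 or CD14 had in the results was not tested, except that all 6 genes still passed when the libraries were thinned to equal depth.

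The promoters of the 3 genes that changed at least 2-fold are shown because all 6 genes rose, though by different factors. RefSeq windows were at hand for 5 of the 6 genes, in 8 windows for several starts of some genes, and SCARB1 was the gene without one. Each sequence below is the 250 bases before an annotated start, in 5′ to 3′ direction of the gene, from RefSeq on GRCh38.p14, with CCAAT boxes in capitals, read as ATTGG where they lie on the other strand.
STARD4 (chr5:111512536-111512785, minus strand): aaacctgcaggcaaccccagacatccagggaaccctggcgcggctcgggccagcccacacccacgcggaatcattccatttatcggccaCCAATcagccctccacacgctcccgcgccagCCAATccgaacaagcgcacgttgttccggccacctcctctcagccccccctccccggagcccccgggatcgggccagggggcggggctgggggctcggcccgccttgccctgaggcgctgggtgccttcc
NPC2 (chr14:74493513-74493762, minus strand): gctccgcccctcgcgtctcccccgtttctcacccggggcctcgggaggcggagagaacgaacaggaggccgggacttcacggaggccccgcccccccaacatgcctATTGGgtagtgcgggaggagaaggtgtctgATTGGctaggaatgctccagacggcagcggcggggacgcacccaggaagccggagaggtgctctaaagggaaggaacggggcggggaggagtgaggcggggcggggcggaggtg
LIPG (chr18:49561807-49562056, plus strand): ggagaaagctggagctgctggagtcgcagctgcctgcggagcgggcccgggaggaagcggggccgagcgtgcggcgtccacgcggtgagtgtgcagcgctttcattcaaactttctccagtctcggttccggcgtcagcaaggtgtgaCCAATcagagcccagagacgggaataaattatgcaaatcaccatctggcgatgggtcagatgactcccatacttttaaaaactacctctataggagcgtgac
The 3 motifs named here were searched on both strands, and no 2 matches overlapped. STARD4 held CCAAT 161 and 130 bases before its start, NPC2 144 and 114 bases before its start on the other strand, and LIPG 102 bases before its start. Of the 35116 RefSeq windows of this length, 32.0% held at least 1 CCAAT. The LIPA window at chr10:89251776-89252025 held CCAAT 106 bases before the start on the other strand, the LIPA window at chr10:89342690-89342939 held 3, and the NPC1 window at chr18:23586507-23586756 held none. The third LIPA window (chr10:89414680-89414929) and a second NPC2 window (chr14:74493306-74493555), which overlaps the NPC2 window shown, also held none. The letters TCACNCCAC, a core of the sterol regulatory element, were in 0.883% of all windows, and TCACGTGA, the core of the CLEAR motif, in 0.854%. Neither was in any of the 8 windows of these genes, which says only that these letters do not occur there. All windows of NPC2, NPC1 and LIPG lie inside the gene spans given below, so bases upstream of those spans were not searched.

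At the cell surface, SCARB1 had the highest level of the 6 genes per length of exon. SCARB1 (ENSG00000073060, protein-coding, GRCh38 chromosome 12, 124776856 to 124882668, minus strand) read 381, 392 and 325 CPM in the control libraries and 529, 556 and 470 CPM in the fluoxetine libraries, in order of replicate number. The lowest fluoxetine library was above the highest control library, although replicate 3 was the lowest library of both groups. The gene averaged 366 ± 35.5 CPM in control and 518 ± 44.0 CPM in fluoxetine libraries (SD, n = 3 each), a rise of 1.42-fold with a 95% interval of 1.23 to 1.63. Its log2 fold change was 0.50 (SE 0.09, edgeR adjusted p = 0.00641). Without fluoxetine replicate 1 it was 0.46 and did not pass the threshold (edgeR adjusted p = 0.0671).

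The secreted lipase LIPG had the lowest level per length of exon and the largest rise. LIPG (ENSG00000101670, protein-coding, chromosome 18, 49560699 to 49599182, plus strand) had 60, 62 and 98 reads in the control libraries but 323, 295 and 336 reads in the shallower fluoxetine libraries. On the CPM scale the control libraries lay at 2.72, 3.23 and 3.53 CPM and the fluoxetine libraries at 19.6, 17.5 and 19.6 CPM. The groups were thus far apart relative to their spread, with means of 3.16 ± 0.409 and 18.9 ± 1.18 CPM (SD, n = 3 each). The rise of 5.95-fold had a 95% interval of 4.80 to 7.38, and the log2 fold change of 2.57 (SE 0.14, edgeR adjusted p = 2.73e-06) was number 10 of all tested genes by size of rise. With each library left out in turn, the log2 fold change of LIPG stayed between 2.44 and 2.64.

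In the lysosome, LIPA rose moderately. LIPA (ENSG00000107798, protein-coding, chromosome 10, 89213569 to 89414557, minus strand) read 112, 112 and 123 CPM in the control libraries and 178, 190 and 190 CPM in the fluoxetine libraries, in order of replicate number. It had the tightest replicates of the 6 genes, with a coefficient of variation of 5.73% in control and 3.65% in fluoxetine libraries. The gene averaged 116 ± 6.63 CPM in control and 186 ± 6.79 CPM in fluoxetine libraries (SD, n = 3 each), or 1.61-fold with a 95% interval of 1.44 to 1.80. The log2 fold change was 0.69 (SE 0.07, edgeR adjusted p = 2.90e-04).

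The annotated span of LIPA holds several interferon-induced genes on the opposite strand, and whether the counting used strand is not given in the sources used here. IFIT2 shares 65 exonic bases with LIPA and had 78 to 143 counts per library, against 2144 to 3422 counts of LIPA. The log2 fold change of IFIT2 was 0.23 (edgeR adjusted p = 0.413). IFIT3, which shares 0 exonic bases with LIPA, had 195 to 260 counts and a log2 fold change of 0.48 (edgeR adjusted p = 0.0356). IFIT1, which also shares 0, had a log2 fold change of 0.19 (edgeR adjusted p = 0.472).

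NPC2 and NPC1, which act in sequence, both rose. NPC2 (ENSG00000119655, protein-coding, chromosome 14, 74476192 to 74494177, minus strand) read 16.9, 14.6 and 12.5 CPM in the control libraries and 46.8, 47.6 and 43.7 CPM in the fluoxetine libraries, in order of replicate number. Every fluoxetine library was well above the control range. The gene averaged 14.7 ± 2.23 CPM in control and 46.0 ± 2.09 CPM in fluoxetine libraries (SD, n = 3 each), or 3.14-fold with a 95% interval of 2.61 to 3.78, and the log2 fold change was 1.65 (SE 0.12, edgeR adjusted p = 1.98e-05). ISCA2 on the opposite strand shares 103 exonic bases with NPC2 and had a log2 fold change of -0.15 (edgeR adjusted p = 0.466) at 171 to 306 counts per library.

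NPC1 (ENSG00000141458, protein-coding, chromosome 18, 23506184 to 23586898, minus strand) had the smallest rise. Its control libraries lay at 49.8, 55.9 and 57.6 CPM and its fluoxetine libraries at 69.3, 70.2 and 79.2 CPM. The groups did not overlap, but the gap between them was little wider than the range within the fluoxetine group. The gene averaged 54.4 ± 4.09 CPM in control and 72.9 ± 5.45 CPM in fluoxetine libraries (SD, n = 3 each), or 1.34-fold with a 95% interval of 1.17 to 1.54. The log2 fold change was 0.42 (SE 0.09, edgeR adjusted p = 0.0138). The edgeR call was lost without control replicate 1 (0.33, adjusted p = 0.0618), control replicate 2 (0.40, adjusted p = 0.0695), fluoxetine replicate 1 (0.43, adjusted p = 0.0692) or fluoxetine replicate 3 (0.34, adjusted p = 0.0994). RMC1 on the opposite strand shares 604 exonic bases with NPC1 and had a log2 fold change of 0.08 (edgeR adjusted p = 0.628) at 349 to 635 counts per library, against 1073 to 1598 of NPC1.

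In the cytosol, the sterol carrier STARD4 rose about as much as the fold limit. STARD4 (ENSG00000164211, protein-coding, chromosome 5, 111496033 to 111512590, minus strand) read 77.7, 80.2 and 94.1 CPM in the control libraries and 175, 159 and 174 CPM in the fluoxetine libraries, in order of replicate number. The lowest fluoxetine library was above the highest control library by more than the range of either group. The gene averaged 84.0 ± 8.83 CPM in control and 169 ± 9.16 CPM in fluoxetine libraries (SD, n = 3 each), or 2.01-fold with a 95% interval of 1.75 to 2.31, an interval that holds the limit of 2. The log2 fold change was 1.01 (SE 0.09, edgeR adjusted p = 7.70e-05), and with RLE normalization it was 0.98. STARD4-AS1, an antisense RNA that shares 124 exonic bases with it, had at most 51 counts in a library.

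**Figure D1:**
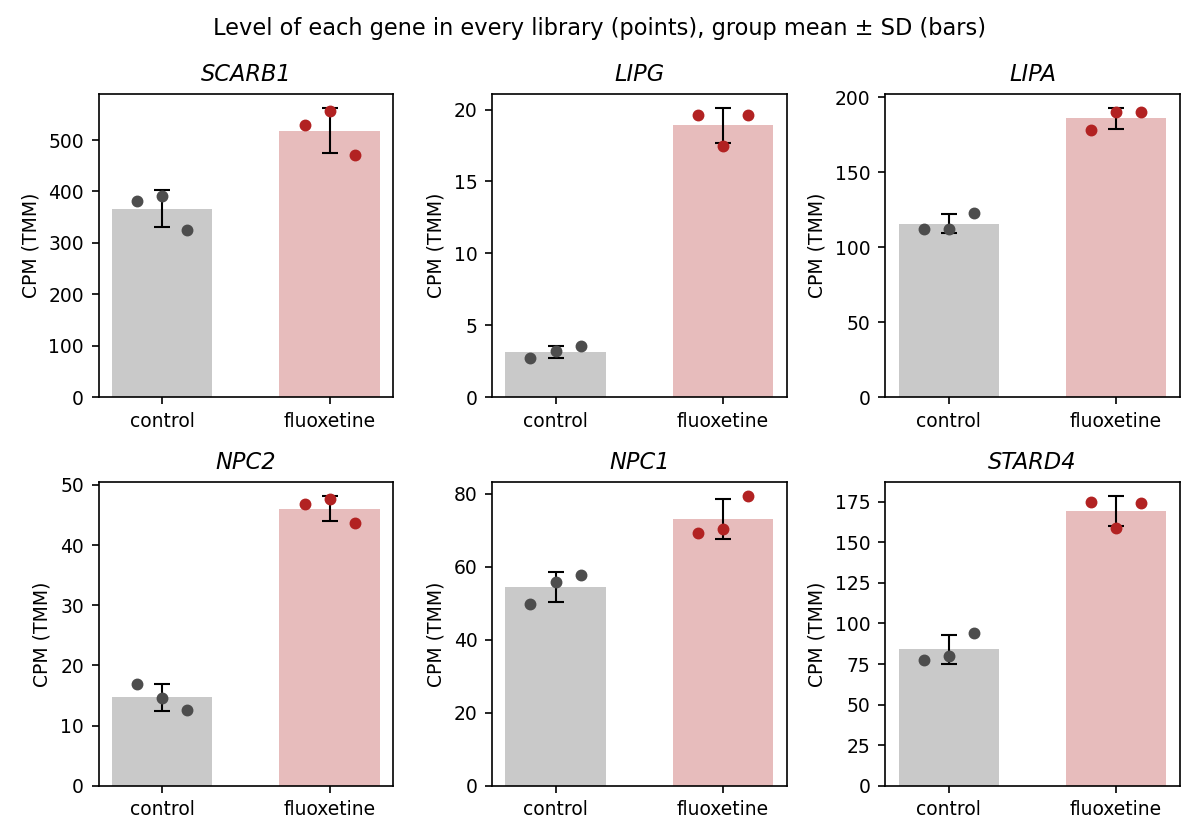
Level of each of the 6 genes in CPM after TMM normalization, with 1 point per library, bars for the group mean and whiskers for the SD (n = 3). In every panel the 3 fluoxetine points lie above the 3 control points, with the largest ratio of means in LIPG (3.16 against 18.9 CPM) and the smallest in NPC1 (54.4 against 72.9 CPM).

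**Figure D2:**
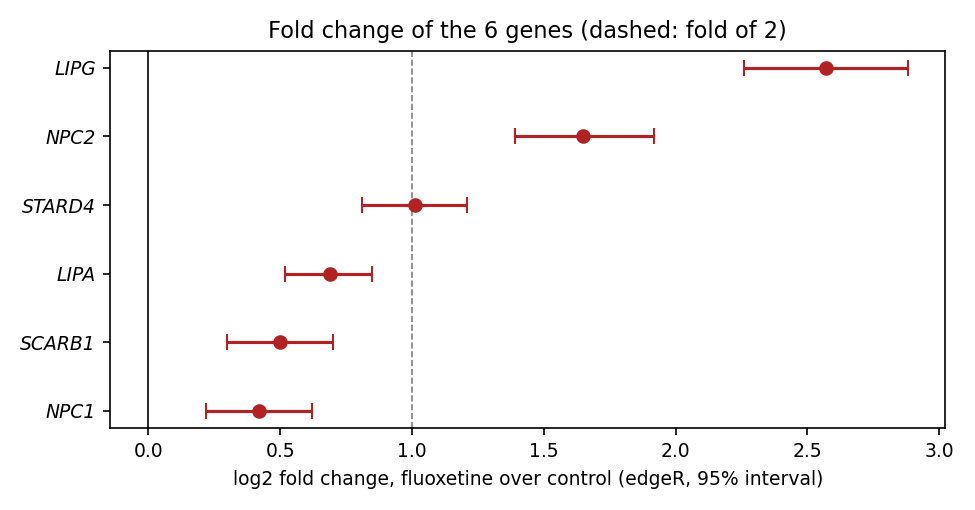
Log2 fold change of fluoxetine over control from edgeR for each gene, with its 95% interval, and a dashed line at a fold of 2. All 6 intervals lie above 0, those of LIPG (2.26 to 2.88) and NPC2 (1.39 to 1.92) lie above the line, and that of STARD4 (0.81 to 1.21) crosses it.

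To ask whether the genes changed by the same factor, the log2 ratio of 4 pairs of them was taken within each library, which removes the scaling between libraries. NPC1 over NPC2 was 1.56, 1.93 and 2.21 in the control libraries but 0.57, 0.56 and 0.86 in the fluoxetine libraries, a mean difference of -1.24. STARD4 over NPC1 went from 0.62 ± 0.10 (SD, n = 3) to 1.22 ± 0.10 (SD, n = 3), and LIPA over NPC1 from 1.09 ± 0.09 (SD, n = 3) to 1.35 ± 0.09 (SD, n = 3). In all 3 of these ratios the groups did not overlap, with NPC1 lower relative to NPC2, STARD4 and LIPA in every fluoxetine library than in any control library. LIPG over SCARB1 rose by 2.08, from -6.86 ± 0.31 (SD, n = 3) to -4.77 ± 0.20 (SD, n = 3), also with no overlap. The two-sided exact permutation test gave p = 0.1 for each pair, adjusted p = 0.1 over the 4 pairs, which is the smallest value that 3 libraries against 3 can give, so these differences could not pass a threshold of 0.05.

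Levels of different genes were compared per kilobase of annotated exon, pooled over all transcripts of a gene in GENCODE release 29, a length that can exceed that of the transcript present. In control cells the order was SCARB1 at 47.3 ± 4.59, LIPA at 23.5 ± 1.35, STARD4 at 14.8 ± 1.55, NPC1 at 5.39 ± 0.405, NPC2 at 5.34 ± 0.810 and LIPG at 0.241 ± 0.0312 CPM per kb (SD, n = 3). NPC1 and NPC2 did not differ beyond their spread there, with ranges of 4.93 to 5.70 and 4.53 to 6.15 CPM per kb. With fluoxetine the order was SCARB1 at 66.9 ± 5.69, LIPA at 37.9 ± 1.38, STARD4 at 29.8 ± 1.61, NPC2 at 16.7 ± 0.762, NPC1 at 7.22 ± 0.539 and LIPG at 1.44 ± 0.0899 CPM per kb (SD, n = 3). No neighbours in that order overlapped, and NPC2, which was level with NPC1 in control cells, lay above it in all 3 libraries. This placement rests on pooled exon lengths of 10102 bases for NPC1 and 2749 bases for NPC2. In CPM, NPC1 lay above NPC2 in both groups, at 54.4 against 14.7 in control and 72.9 against 46.0 with fluoxetine.

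**Figure D3:**
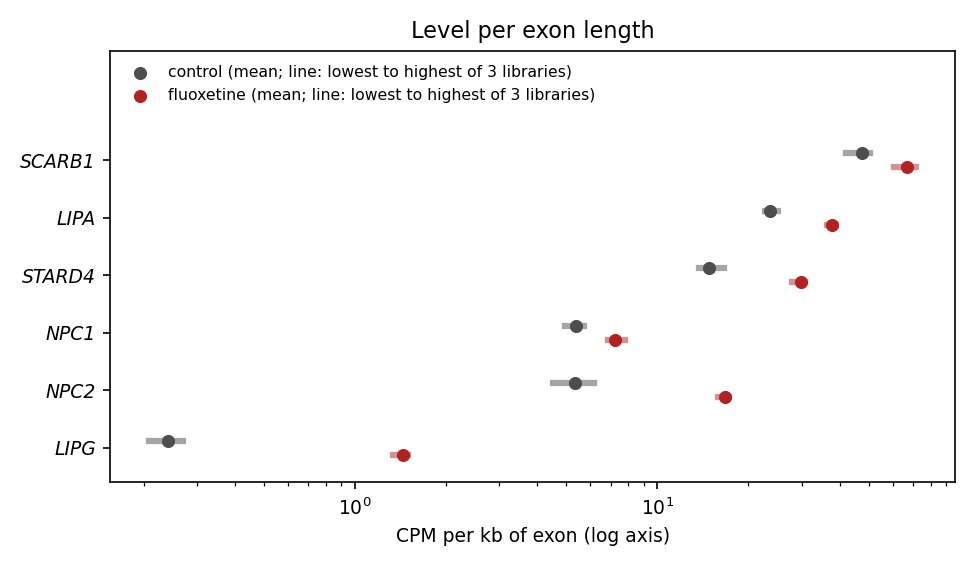
Level of each gene in CPM per kb of exon on a log axis, with a dot for the mean of 3 libraries and a line from the lowest to the highest of them, in grey for control and red for fluoxetine. On this scale, which depends on the pooled exon lengths, NPC1 and NPC2 lie together in control cells (5.39 and 5.34) and apart with fluoxetine (7.22 and 16.7).

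The other genes of the pathway were read from 6 lists with 64 genes, of which 44 had enough counts to be tested. By edgeR 12 of these 44 genes rose, 0 fell and 32 did not pass the test, with a median log2 fold change of 0.22 beside 0.85 for the 6 genes described above. After adjustment, 7.76% of all tested genes passed as higher and 5.32% as lower. These shares are the background of each list below, and no list was tested as a set. At an unadjusted p under 0.05, 18 of the 44 were higher and 0 lower, beside 2465 higher and 2020 lower of all 15646 tested genes. DESeq2 and limma-voom also called 0 of the lists lower after adjustment. The number past the threshold was 7 without control replicate 1, 5 without control replicate 2, 3 without fluoxetine replicate 1 and 6 without fluoxetine replicate 3. Without control replicate 3 it was 16, of which 2 were lower.

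Of 14 other lipoprotein receptors and their partners, 10 were tested and 2 rose, beside 7.76% of all tested genes. LRP1, a large endocytic receptor, averaged 18.5 ± 2.73 CPM in control and 28.1 ± 5.11 CPM in fluoxetine libraries (SD, n = 3 each), a log2 fold change of 0.61 (SE 0.15, edgeR adjusted p = 0.0273). SORT1, which encodes the sorting receptor sortilin, had a log2 fold change of 0.56 (SE 0.14, edgeR adjusted p = 0.0236). The median of the list was 0.17, and VLDLR and LRP8, close relatives among the receptors, had log2 fold changes of 0.32 and 0.20 (edgeR adjusted p = 0.104 and 0.185). Both calls were lost without control replicate 1 or 2 or fluoxetine replicate 1 or 3. Without these libraries in that order, edgeR gave LRP1 log2 fold changes of 0.46, 0.66, 0.53 and 0.47 (adjusted p from 0.0648 to 0.144). SORT1 was then at 0.43, 0.60, 0.53 and 0.50 (adjusted p from 0.0601 to 0.121).

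Of 12 extracellular lipases and their regulators, 6 were tested and only LIPH rose. LIPH encodes a membrane-bound lipase that makes lysophosphatidic acid. It averaged 23.1 ± 1.70 CPM in control and 37.2 ± 1.44 CPM in fluoxetine libraries (SD, n = 3 each), a log2 fold change of 0.68 (SE 0.10, edgeR adjusted p = 0.00163). LPL, the relative of LIPG that acts on triglyceride-rich particles, had a log2 fold change of 0.59 with a standard error of 0.28 (edgeR adjusted p = 0.197). Of the 5 other genes of the acid lipase family of LIPA, LIPF had at most 1 count in a library and was not tested, and the others were not analysed here.

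Among 7 proteins of late endosomes and lysosomes that bind or move cholesterol, 4 rose. LAMP2, a major glycoprotein of the lysosomal membrane, averaged 143 ± 17.0 CPM in control and 245 ± 9.34 CPM in fluoxetine libraries (SD, n = 3 each), with a log2 fold change of 0.78 (SE 0.09, edgeR adjusted p = 5.42e-04). LAMP1, its close relative, rose by 0.44 log2 units (edgeR adjusted p = 0.00432), but not without fluoxetine replicate 1 (0.42, adjusted p = 0.0518). SCARB2, which encodes LIMP-2, a relative of SR-B1, rose by 0.40 log2 units (edgeR adjusted p = 0.00986). Its call was lost without control replicate 2 (0.36), fluoxetine replicate 1 (0.38) or fluoxetine replicate 3 (0.36), with edgeR adjusted p from 0.0593 to 0.0749. TMEM97, the sigma-2 receptor, which binds NPC1, rose by 0.28 (edgeR adjusted p = 0.0301), a call lost with DESeq2 (0.26, adjusted p = 0.0545) and with no filter on low counts (0.25, edgeR adjusted p = 0.0600). It was also lost when any single library but control replicate 3 was left out, at 0.20 to 0.30 (edgeR adjusted p from 0.105 to 0.167). STARD3, a sterol carrier of the late endosomal membrane in the family of STARD4, had a log2 fold change of -0.15 (edgeR adjusted p = 0.420).

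Soluble lysosomal proteins such as LIPA and NPC2 are tagged with mannose 6-phosphate and sorted to the lysosome by its receptors. Of 8 genes of this route, 3 rose. Both receptors were among them, with IGF2R at 378 ± 56.0 CPM in control and 608 ± 100 CPM in fluoxetine libraries, and M6PR at 109 ± 9.64 and 149 ± 4.66 CPM (SD, n = 3 each). Their log2 fold changes were 0.69 and 0.46 (edgeR adjusted p = 0.00836 and 0.00571). The call of M6PR was lost without fluoxetine replicate 1 (0.43, edgeR adjusted p = 0.0552), and that of IGF2R without it (0.63, adjusted p = 0.0573) or without control replicate 2 (0.67, adjusted p = 0.0512). GNPTAB, which encodes the enzyme that begins the tag, had a log2 fold change of 0.38 (edgeR adjusted p = 0.0495), and its call was lost with limma-voom (0.38, adjusted p = 0.0550) and with RLE normalization (0.35, edgeR adjusted p = 0.0539). It was lost as well without control replicate 1 or 2 or fluoxetine replicate 1 or 3, at 0.26 to 0.35 (edgeR adjusted p from 0.190 to 0.224). The GGA adaptors, which carry the receptors from the Golgi, had log2 fold changes of -0.01, 0.08 and 0.02 for GGA1, GGA2 and GGA3.

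Of 18 other sterol carriers and transfer proteins, 13 were tested and 2 rose, both of the family of oxysterol-binding proteins. OSBPL1A rose by 0.51 log2 units (SE 0.09, edgeR adjusted p = 0.00491) and OSBPL8 by 0.49 (SE 0.13, edgeR adjusted p = 0.0355). The call of OSBPL8 was lost when any single library but control replicate 3 was left out, at 0.31 to 0.49 (edgeR adjusted p from 0.0619 to 0.186). SCP2, an abundant sterol carrier of peroxisomes and cytosol, had a log2 fold change of 0.09 (edgeR adjusted p = 0.516). STAR, STARD5 and STARD6, relatives of STARD4, had at most 2, 9 and 8 counts in any library and were not tested.

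**Figure D4:**
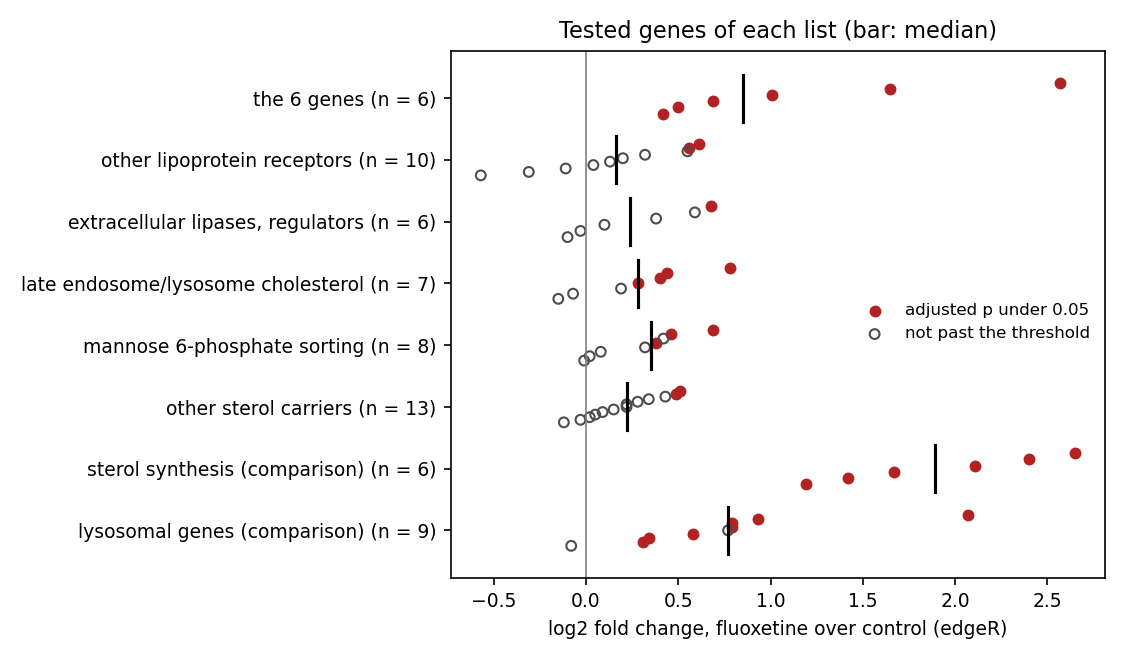
Log2 fold change of fluoxetine over control for each tested gene of a list, with filled points past an adjusted p-value of 0.05, open points not past it and a bar at the median. The 6 genes have a median of 0.85, near that of the 9 lysosomal genes (0.77). It lies above the lists of the wider pathway (0.17 to 0.35) and below the 6 genes of sterol synthesis (1.89). The 9 lysosomal genes are a chosen list, and the 111 tested genes annotated to the lysosome, not drawn, had a median of 0.28.

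Beside these lists, 6 genes of sterol synthesis and its control and 9 lysosomal genes were read for comparison. All 6 of the first rose, with log2 fold changes between 1.19 for FDFT1 and 2.65 for HMGCS1. Of the 9 lysosomal genes 7 rose, with a median of 0.77, beside 7.76% of all tested genes passing as higher. These 9 genes are a chosen list, and the 111 tested genes annotated to the lysosome had a lower median of 0.28. LIPG lay within the range of the synthesis genes and NPC2 too, STARD4 just under it, and LIPA, SCARB1 and NPC1 below it. NPC2, STARD4, LIPA, SCARB1 and NPC1 lay within the range of the 9 lysosomal genes, -0.08 to 2.07, and LIPG above it. Of the 7 lysosomal calls, that of GLB1, a galactosidase, was lost with no filter on low counts (0.28, edgeR adjusted p = 0.0776). It was also lost without control replicate 1 or 2 or fluoxetine replicate 1 or 3, at 0.25 to 0.30 (edgeR adjusted p from 0.0900 to 0.181). The call of CTSB, a protease, was lost without control replicate 2 or fluoxetine replicate 1 or 3, at 0.31 to 0.34 (edgeR adjusted p from 0.0671 to 0.0821). The largest lysosomal rise was that of NEU1, a sialidase, with 2.07. Many of these lysosomal genes are known TFEB targets and the synthesis genes are known SREBP targets, but the activity of either factor was not tested.

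The authors' annotation puts LIPA, NPC1 and NPC2 in the lysosome pathway, LIPA also in steroid biosynthesis, and all of the 6 genes but STARD4 in cholesterol metabolism. Of the 111 tested genes annotated to the lysosome, 42 rose and 1 fell, with a median log2 fold change of 0.28. Among all tested genes 7.76% rose and 5.32% fell, with a median of 0.03. The gene that fell was CTSC, a lysosomal protease named after its value was seen, with a log2 fold change of -0.24 (edgeR adjusted p = 0.0353). Without LIPA, NPC1 and NPC2 the median of the lysosome genes was 0.27. The 29 tested genes annotated to cholesterol metabolism had a median of 0.06, which turned to -0.10 for the 24 that are left without LIPA, NPC1, NPC2, LIPG and SCARB1.

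Across the 6 libraries, the gene whose log2 CPM ran most like that of LIPG was HMGCS1 (Pearson r = 0.9998), the enzyme that makes HMG-CoA, followed by PFKFB2 (0.9994) and SCD (0.999), among 14268 genes of at least 1 CPM. For NPC2 they were ATP6V1B2, a subunit of the lysosomal proton pump, PBXIP1 and HS1BP3 (0.9976, 0.9975 and 0.9974), and for STARD4 they were OIP5-AS1, AP000844.2 and ERRFI1 (0.9994, 0.9981 and 0.9981). These 6 points are 3 libraries of each group, so they share the shift between the groups, and 95, 38 and 65 genes had an r over 0.99 with LIPG, NPC2 and STARD4.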

How the data were processed

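RNA was sequenced from 3 control and 3 fluoxetine libraries, grouped and numbered by their sample titles. The authors deposited raw read counts per gene, without normalization and with replicates kept apart. Their processing notes name fastp 0.20.0, HISAT2 2.1.0 and HTSeq 0.10.0, and the settings, strand mode and annotation are not given in the sources used here. The gene coordinates are those of GRCh38, and 96.4% of the rows had the same start and end in GENCODE release 29. The deposited table also holds the authors' log2 fold changes, p-values and adjusted p-values, which were not used.

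Differential expression was computed from these counts by edgeR 4.0.16 under R 4.3.3 (filterByExpr, TMM, glmQLFit and glmQLFTest, no covariate), with Benjamini-Hochberg adjustment over 15646 genes and a threshold of 0.05. Standard errors were derived from the F statistic and 95% intervals from its degrees of freedom. The square root of the common dispersion was 0.107. The low-count filter was set by the counts of both groups, and all 6 genes passed it. Replicate pairs differed by more than sampling noise (chi-square per degree of freedom from 3.69 to 25.2). The code was tested on simulated data. Ratios were compared by exact permutation tests.

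The 6 genes and the lists were chosen with earlier results of these data known, and the pathway annotation was added after seeing the data. Genes of a list were named where they passed the threshold, beside relatives chosen after their values were seen. A gene was set beside 3 others by Pearson r only if it reached a fold of 2. Alternatives were DESeq2 1.42.0, limma-voom (limma 3.58.1), RLE, library size only, no filter, a minimum of 10 counts throughout, a block for the replicate number, each library left out, and, added after seeing the data, equal depth by thinning. Some genes of the pathway are not reported here.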

Additional observations from a re-analysis of the deposited data

How the results depend on the processing

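All 6 genes kept their direction in every alternative, and all 6 calls held with DESeq2, limma-voom, RLE normalization, library size only, both other filters and equal depth. With 1 library left out at a time, between 4 and 6 of the 6 genes passed. NPC1 ranged from 0.33 to 0.43 and SCARB1 from 0.39 to 0.55 on the log2 scale, losing the calls named in the report, while STARD4, NPC2, LIPA and LIPG passed in all 6 fits. Either 2 or 3 of the genes passed a fold of 2 as well, depending on STARD4, which stayed between 0.92 and 1.07. The smallest of the differences in log2 ratio, that of LIPA over NPC1, kept its sign without any 1 library, as did the other 3.

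The number of genes past the threshold, 2047 of 15646, was less stable. It was 1191 without control replicate 1, 919 without control replicate 2, 3633 without control replicate 3, 572 without fluoxetine replicate 1 and 935 without fluoxetine replicate 3, and with a fold of 2 it went from 218 to between 149 and 277. The count of 12 in the wider pathway went to between 3 and 16 in these fits, namely 7, 5 and 16 without control replicates 1, 2 and 3 and 3 and 6 without fluoxetine replicates 1 and 3. The cause was not tested. Same-numbered libraries correlated at 0.0297, 0.116 and 0.392 in their deviations from the group means, and differently numbered ones at -0.38 to 0.32. These values do not settle whether replicate numbers pair the libraries, and the main fit had no covariate. With the replicate number as a block, 4018 genes passed, 19 of the wider pathway among them, and all 6 genes kept their calls. LIPG, at 60 to 98 counts in control libraries, has the least depth of the 6 genes.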
